A study of Mus musculus with 2 samples.

Results

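The 10 genes described here are read-outs of blood flow in vessels. They were found by symbol among the 27514 genes of the count matrix, and all 10 were present. They are the transcription factors Klf2 and Klf4, the nitric oxide synthase gene Nos3, the caveolin gene Cav1, the thrombomodulin gene Thbd, the endothelin gene Edn1, Nfe2l2 (which encodes NRF2) with the NRF2 targets Hmox1 and Nqo1, and the mechanically gated channel gene Piezo1. RNA was read by single-cell RNA-seq in 3954 SP3-null and 4451 wild-type cells, 8405 in all, each with its transcripts counted as unique molecular identifiers (UMIs). The SP3-null embryos had the Sp3tm1Sus allele (B6.129P2-Sp3tm1Sus) on both chromosomes and the wild-type embryos on neither, and all were taken at embryonic day 10.5 from crosses between heterozygotes, on a background that mixes C57Bl6/J with B6129SF1/J. Endothelium of the dorsal aorta was sorted (ESAM+, CD144+, CD31+, Ter119-, CD41 low or negative) and pooled over embryos of a genotype, and the sources used here do not say how many. With 1 library per genotype, an effect of SP3 cannot be told apart from a difference between the pools or libraries, no test was made, and every interval below is a 95% interval for counting error only.

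The deposited table places each cell in a class along the path from vessel wall to blood. Arterial endothelium (AE) and venous endothelium (VE) are each split into Wnt-high and Wnt-low cells. The AE cells lead to conflux AE, then to pre-hemogenic endothelium (pre-HE), to the hemogenic endothelium itself (HE) and to cells of the intra-aortic clusters (IAC), and a large class is called other endothelium. The 9 classes held 40 to 1406 SP3-null cells and 59 to 1624 wild-type cells each, with medians of 8850 to 30343 and 9248.5 to 31009 UMIs per cell. UMIs per 1000000 (CPM) were computed per class and also for the sum of the 6 classes Wnt-high and Wnt-low VE, Wnt-high and Wnt-low AE, conflux AE and pre-HE, here called the endothelial sum, with 39445990 SP3-null and 42091263 wild-type UMIs. The 7 endothelial markers were all detected in every class, summing to 2707 CPM in the SP3-null and 2752 CPM in the wild-type endothelial sum. Of the lists for other cells, 4 were lower in the SP3-null sum, the epithelial at 1.24 against 3.18 CPM (-1.36), the neural at 76.8 against 121 CPM (-0.66), the macrophage at 4.06 against 5.49 CPM (-0.44) and the erythroid at 58.5 against 64.7 CPM (-0.14). The intervals of the hematopoietic, megakaryocyte and mesenchyme lists covered 0, and the endocardial list was at 453 against 442 CPM (0.04). The neural list was highest in pre-HE, where Stmn2 held 466 of its 468 SP3-null and 1291 of its 1295 wild-type UMIs. Pre-HE also held 17 of the 49 SP3-null and 73 of the 134 wild-type epithelial UMIs of the sums. Whether the neural and epithelial ratios reflect cells of other types was not tested. The libraries shared 5 cell barcodes. Sp3 itself had 35.6 CPM in the SP3-null and 46.3 CPM in the wild-type endothelial sum, a log2 ratio of -0.38 (-0.48 to -0.28). Which part of Sp3 the allele removes is not stated in those sources, so these UMIs, read at the 3' end of transcripts, do not check the genotype.

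Flowing blood drags on the endothelium, and the cells sense this shear stress through channels such as PIEZO1 and through junctional proteins. Steady laminar shear acts through the MEK5-ERK5-MEF2 cascade to induce Klf2 and Klf4, whose products in turn favour transcription of Nos3 and Thbd and restrain Edn1. Nitric oxide made by NOS3 relaxes vessels, is held in check by CAV1 in caveolae, and in the embryo is needed for blood stem cells to emerge from the aorta. The question here was whether such genes differed between SP3-null and wild-type cells, since a change in flow could alter blood formation indirectly.

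SP3 binds GC boxes, and KLF2 is a relative of it that binds related GC-rich sites. The 250 bases before the start of each gene were therefore read from a set of RefSeq promoter sequences (build GRCm38.p6). The set used held 7 of the 10 genes and lacked Nos3, Thbd and Hmox1. A GC box (GGGCGG, either strand) was present before 6 of these 7 genes, and before 32.7% of 32851 windows of the same kind. Klf4 had 4 matches, of which a pair overlaps, Nfe2l2 had 3, Klf2 and Nqo1 had 2, Piezo1 had 1, Cav1 had 1 in the first of its 2 windows, and Edn1 had none. The MEF2 consensus was matched only before Klf2 among these genes, centred 113 bases before its start, and in 2.92% of all windows. The core of the antioxidant element bound by NRF2 (TGACNNNGC, either strand) was matched before Nfe2l2 and Edn1 and in 10.2% of all windows. Shown are the windows of Klf2, Klf4 and Edn1, whose levels the results turn on, at chr8:72318812-72319061 (plus strand), chr4:55532476-55532725 (minus strand) and chr13:42301226-42301475 (plus strand), read 5' to 3' on the strand of the gene. Capitals mark GC boxes and, in Klf2, also the MEF2 match, CTAAATTTAG.
Klf2: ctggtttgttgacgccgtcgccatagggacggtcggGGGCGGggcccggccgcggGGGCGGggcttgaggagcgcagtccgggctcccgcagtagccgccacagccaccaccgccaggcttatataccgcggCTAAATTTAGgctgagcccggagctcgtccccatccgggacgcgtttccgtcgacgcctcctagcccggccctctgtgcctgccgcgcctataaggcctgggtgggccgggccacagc
Klf4: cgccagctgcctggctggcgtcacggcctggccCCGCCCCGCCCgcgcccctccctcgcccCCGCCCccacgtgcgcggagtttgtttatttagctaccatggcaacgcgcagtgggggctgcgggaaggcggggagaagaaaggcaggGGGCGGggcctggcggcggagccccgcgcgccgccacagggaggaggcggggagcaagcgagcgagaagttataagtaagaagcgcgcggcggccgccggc
Edn1: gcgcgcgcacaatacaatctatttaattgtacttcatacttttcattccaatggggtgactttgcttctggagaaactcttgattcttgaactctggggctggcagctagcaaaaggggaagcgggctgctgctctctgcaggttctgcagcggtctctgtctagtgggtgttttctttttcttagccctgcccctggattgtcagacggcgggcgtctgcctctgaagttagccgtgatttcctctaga

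Klf2, the main shear-induced transcription factor of endothelium, was the most abundant of the 10 genes and was lower in SP3-null cells. It had 9034 UMIs, 229 CPM (224 to 234), in the SP3-null endothelial sum and 11332 UMIs, 269 CPM (264 to 274), in the wild-type sum. The log2 ratio was -0.23 (-0.27 to -0.19), a fold of 0.851. Of all 10146 genes with at least 200 UMIs in the sum, 10.4% had a lower ratio, and of the 546 genes with about as many UMIs 1.83% did. This did not reach the fold threshold used below, a log2 ratio of 0.32 in either direction.

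**Figure D1:**
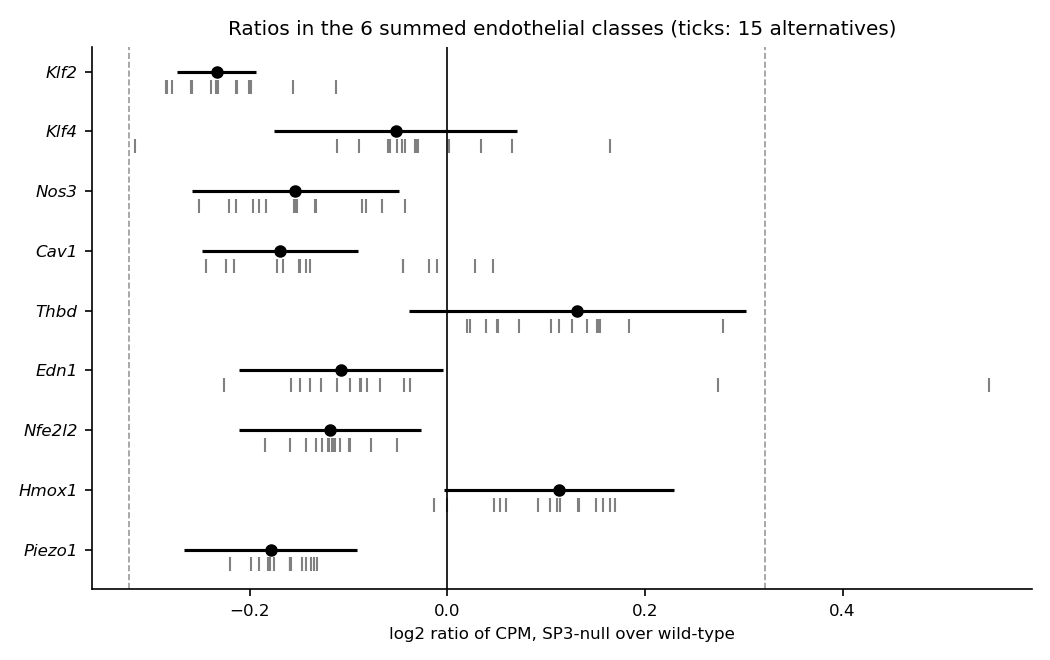
Log2 ratio of CPM in the endothelial sum, SP3-null over wild-type, for the 9 genes with at least 200 UMIs. Points with bars are the ratio and its 95% counting interval, grey ticks the 15 alternative settings of cells or scaling, and dashed lines the fold threshold at 0.32 either way. Klf2 lies furthest below 0 at -0.23, and ticks of Edn1 fall on both sides of 0.

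None of the 9 genes with at least 200 UMIs passed the fold threshold in the endothelial sum, against 9.15% of all genes in either direction. By their counting intervals 6 of the 9 lay below 0, against 22.0% of all genes, and 0 lay above 0, against 13.7%. Fewer UMIs give a wider interval. Of the 9, Thbd had the fewest, with 577 SP3-null and 562 wild-type UMIs, while all genes reach down to 200 over both libraries. These shares are thus not of genes with like UMIs. Of 13 alternatives with an interval, that of Klf2 stayed below 0 in 13 and that of Piezo1 in 11, but that of Cav1 in 9 and that of Edn1 in only 3, and Edn1 covered 0 under TMM and DESeq2 scaling. Piezo1 had 49.0 CPM in SP3-null and 55.5 CPM in wild-type cells, a log2 ratio of -0.18 (-0.27 to -0.09). Cav1 had 60.2 and 67.7 CPM in SP3-null and wild-type cells, a ratio of -0.17 (-0.25 to -0.09), and Nos3 had 34.5 and 38.4 CPM, a ratio of -0.15 (-0.26 to -0.05). Nfe2l2 had 45.2 CPM in SP3-null and 49.1 CPM in wild-type cells, a ratio of -0.12 (-0.21 to -0.03), and Edn1 had 36.0 and 38.8 CPM, a ratio of -0.11 (-0.21 to -0.004). For Klf4, at 25.9 and 26.9 CPM in SP3-null and wild-type cells, the interval covered 0 (-0.05, -0.18 to 0.07). The highest ratios were those of Thbd, with 14.6 CPM in SP3-null and 13.4 CPM in wild-type cells (0.13, -0.04 to 0.30), and Hmox1, with 30.5 and 28.2 CPM (0.11, -0.004 to 0.23). Nqo1 was nearly undetected, with 6 SP3-null and 9 wild-type UMIs.

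By class, Klf2 was lower in SP3-null cells in 8 of 9 classes, and 12.5% of the 4780 genes with at least 50 UMIs in every class were lower in 8 or more. In 5 of the 9 it was lower past the fold threshold, and 1.49% of these genes were so in 5 or more. The exception was conflux AE, with 399 CPM in SP3-null and 380 CPM in wild-type cells (0.07, -0.08 to 0.23). The lowest ratio was in pre-HE, at 332 CPM (295 to 372) in SP3-null and 491 CPM (456 to 527) in wild-type cells, a log2 ratio of -0.56 (-0.76 to -0.37). In Wnt-low AE Klf2 had 187 CPM in SP3-null and 235 CPM in wild-type cells (-0.33, -0.44 to -0.21), whereas in Wnt-high AE it had 280 and 297 CPM and the interval reached 0 (-0.08, -0.17 to 0.001). In other endothelium, the largest class, it had 237 CPM in SP3-null and 301 CPM in wild-type cells (-0.35, -0.39 to -0.30). In Wnt-high VE it had 199 CPM in SP3-null and 248 CPM in wild-type cells, and in Wnt-low VE 208 and 247 CPM. HE had 136 CPM in SP3-null and 195 CPM in wild-type cells, and IAC had 115 and 150 CPM.

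**Figure D2:**
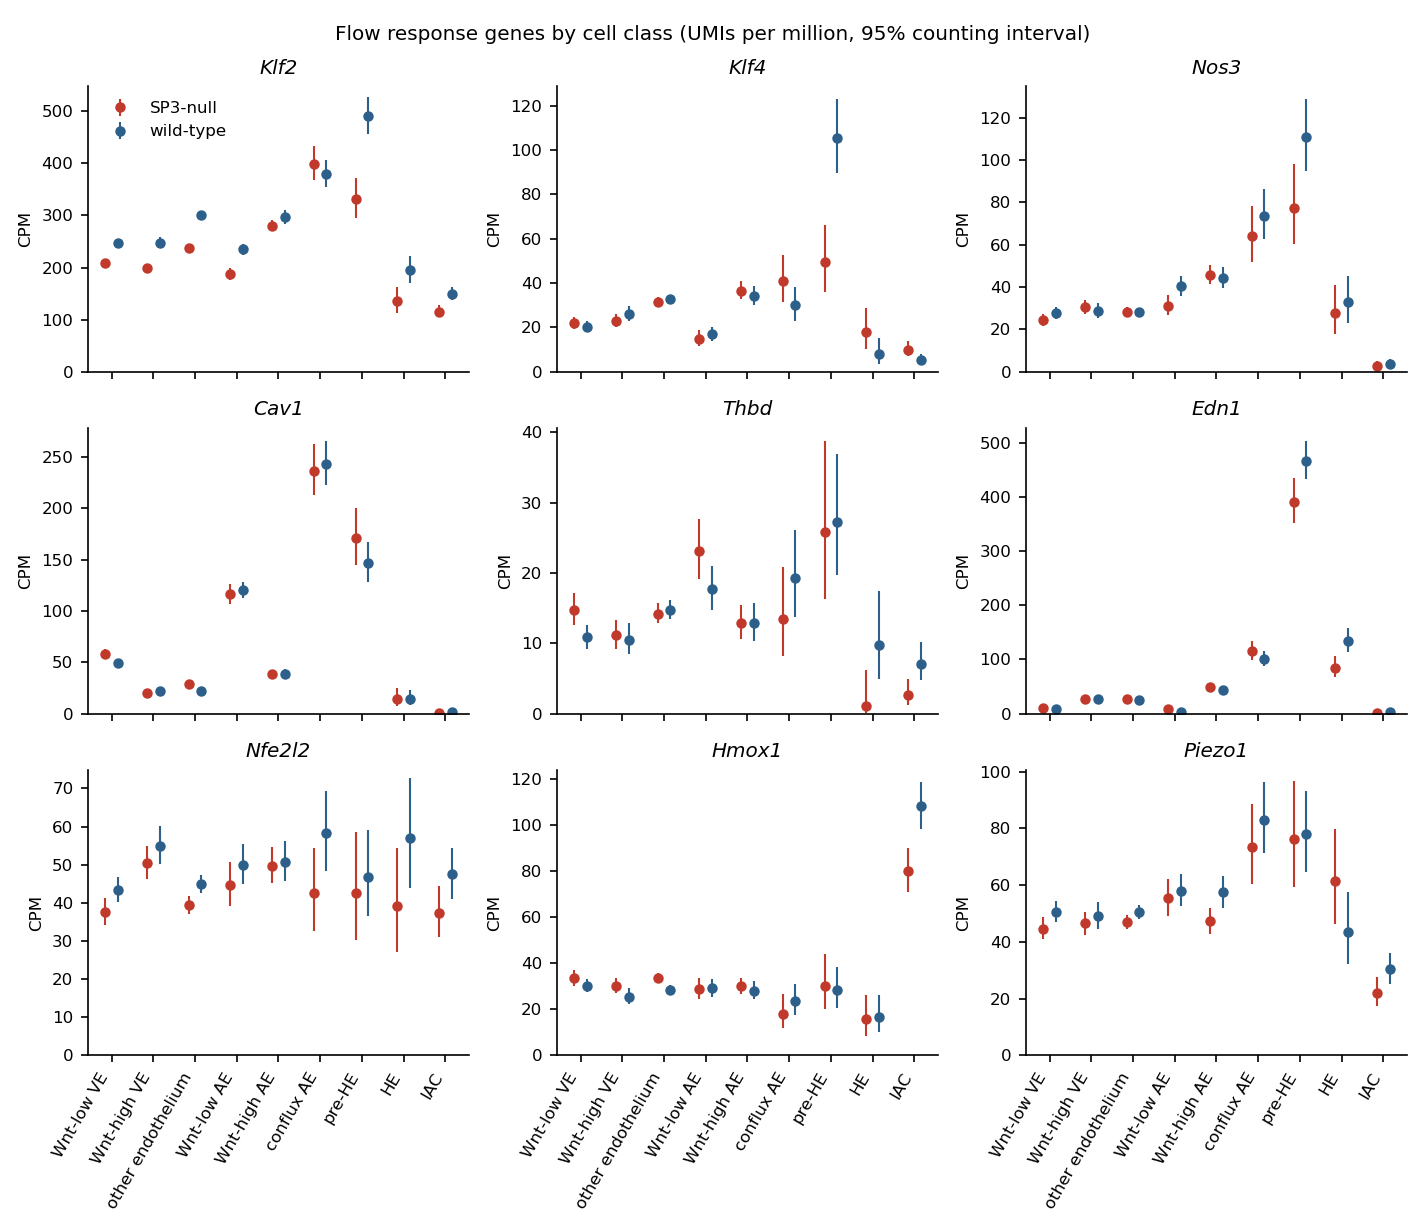
CPM of 9 flow response genes in each cell class, with SP3-null (red) left of wild-type (blue). Points are 1 library each and bars are 95% Poisson intervals. Klf2, Klf4, Nos3 and Edn1 peak in conflux AE or pre-HE, Cav1 peaks in conflux AE, Nfe2l2 stays between 37.3 and 58.2 CPM, and Hmox1 is highest in IAC.

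Klf2 was unevenly spread among cells, and a few cells carried much of it in the small classes. The 3 cells with the most Klf2 UMIs held 33.1% of the pre-HE total in the SP3-null and 20.4% in the wild-type library, and 58.2% and 37.9% of the HE total. Without them the log2 ratio was -0.81 in pre-HE (-1.04 to -0.57) and -1.13 in HE (-1.63 to -0.66). The 3 cells were left out of 92 SP3-null and 136 wild-type pre-HE cells and of 40 and 59 HE cells. This took a larger part of the SP3-null UMIs, so these ratios cannot show whether the difference grew or held. After each cell was thinned to 5000 UMIs, 37 of 74 SP3-null and 64 of 102 wild-type pre-HE cells had a Klf2 UMI (unthinned 57.6% and 66.9%). The thinned intervals overlapped (38.1% to 61.9% and 52.6% to 72.1%). In Wnt-low AE 36.9% (31.4% to 42.6%) of SP3-null and 47.7% (42.7% to 52.8%) of wild-type cells did (unthinned 52.9% and 61.2%). Klf2 is also induced by the handling of cells, and the 17 immediate early and dissociation genes summed to 2118 CPM in the SP3-null and 2206 CPM in the wild-type endothelial sum. Of this, the chaperone gene Hsp90aa1 alone made up 1079 CPM in SP3-null and 1105 CPM in wild-type cells. Cells chosen by the share of these genes are thus chosen in large part by Hsp90aa1, and the part of handling in the Klf2 ratio was not tested. Among cells with a share of these genes at or below the median, the Klf2 ratio in the sum was -0.23 (-0.31 to -0.16). The same selection gave -0.50 (-0.71 to -0.30) in Wnt-low AE, and -0.15 with an interval that covered 0 (-0.35 to 0.06) in Wnt-high VE. Without cells carrying at least 2 macrophage, erythroid, neural or megakaryocyte markers the ratio in the sum was -0.26 (-0.30 to -0.22).

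Klf4, the partner of Klf2 in the response to laminar flow, differed mainly in pre-HE. There it had 44 UMIs, 49.4 CPM (35.9 to 66.3), in SP3-null and 162 UMIs, 105 CPM (89.8 to 123), in wild-type cells. The log2 ratio was -1.09 (-1.61 to -0.61), the lowest of any of the 10 genes in a class with at least 50 UMIs, and it was -1.16 (-1.81 to -0.56) without the 3 cells with the most Klf4. Those cells, 3 per library, held 34.1% of the SP3-null and 30.9% of the wild-type Klf4 UMIs of pre-HE. The levels were closer when each cell counted alike, at 37.8 CPM in SP3-null and 56.9 CPM in wild-type cells thinned to 5000 UMIs, from only 14 and 29 UMIs. After thinning, 12.2% (5.71% to 21.8%) of SP3-null and 18.6% (11.6% to 27.6%) of wild-type pre-HE cells had a Klf4 UMI (unthinned 22.8% and 29.4%). These thinned intervals overlapped. The remaining classes gave smaller or uncertain differences. In Wnt-high AE Klf4 had 36.6 CPM in SP3-null and 34.1 CPM in wild-type cells, and in conflux AE 41.1 and 30.05 CPM (0.45, -0.08 to 0.98). In IAC, where it was scarce, it had 35 UMIs or 10.0 CPM in SP3-null and 22 UMIs or 5.22 CPM in wild-type cells. That ratio of 0.94 (0.13 to 1.78) became 0.62 (-0.47 to 1.74) without 3 cells per library. Klf4 was detected mostly in cells that also had Klf2. In the thinned endothelial sum 16.1% of SP3-null cells with a Klf2 UMI had Klf4, against 4.95% of those without, and in wild-type cells 16.1% and 3.21% did. The part of depth and of free RNA in this was not tested.

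Nos3 and Edn1, which set vessel tone in opposite ways, both had lower CPM in SP3-null pre-HE, though for Edn1 the share of cells with a UMI was alike. Nos3 had 77.4 CPM (60.2 to 98.0) in SP3-null and 111 CPM (94.6 to 129) in wild-type pre-HE, a log2 ratio of -0.51 (-0.94 to -0.10). The interval covered 0 in pre-HE cells of low immediate early share (-0.37, -0.95 to 0.19). Wnt-low AE had 31.3 CPM in SP3-null and 40.3 CPM in wild-type cells (-0.36, -0.65 to -0.09). In Wnt-high AE it had 45.8 CPM in SP3-null and 44.4 CPM in wild-type cells, and in other endothelium 28.4 and 28.1 CPM. Of the pre-HE cells 29.7% of SP3-null and 40.2% of wild-type cells had a Nos3 UMI after thinning (unthinned 42.4% and 64.0%). The thinned intervals overlapped (19.7% to 41.5% and 30.6% to 50.4%), while the unthinned ones did not (32.1% to 53.1% and 55.3% to 72.0%). With Klf2 and Klf4, Nos3 made 3 of 9 genes lower past the fold threshold in pre-HE, where 15.6% of all genes were, and 0 of 9 were higher past it, against 16.4%. In the same class the neural list differed in the same direction, with 525 CPM in SP3-null and 843 CPM in wild-type cells, nearly all of it Stmn2 with 466 and 1291 UMIs, while Tubb3, Elavl3, Sox2 and Nefm were at 0 in both libraries. The epithelial list was also lower, with 17 UMIs or 19.1 CPM in SP3-null and 73 UMIs or 47.5 CPM in wild-type pre-HE (-1.32, -2.17 to -0.54). The erythroid list was higher, with 64.0 CPM in SP3-null and 41.0 CPM in wild-type pre-HE (0.64, 0.10 to 1.18), and the macrophage list held 3 and 7 UMIs. The part of these markers in the pre-HE ratios was not tested.

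**Figure D3:**
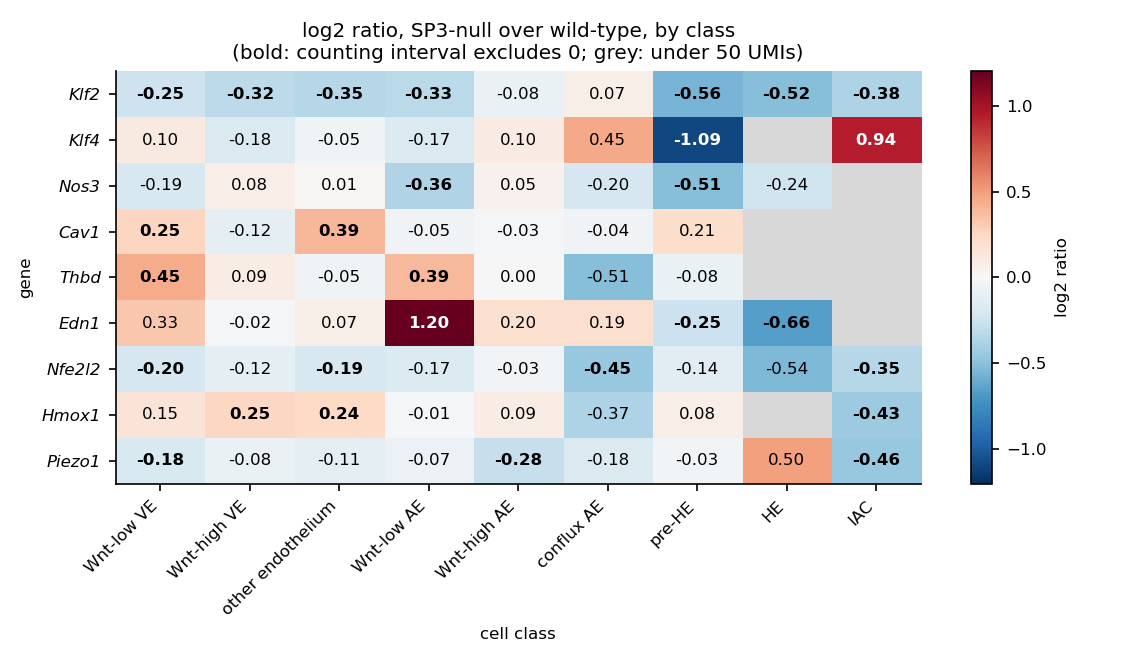
Log2 ratio of CPM, SP3-null over wild-type, for 9 genes (rows) in 9 classes (columns). Blue is lower and red is higher in SP3-null cells, bold values have a counting interval that excludes 0, and grey cells hold under 50 UMIs. The Klf2 row is below 0 in 8 classes, the pre-HE column reaches -1.09 for Klf4, and Edn1 is at 1.202 in Wnt-low AE.

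Edn1, which encodes the vasoconstrictor endothelin-1, had the steepest profile over classes. It had 391.6 CPM (352 to 435) in SP3-null and 467 CPM (434 to 503) in wild-type pre-HE (-0.25, -0.44 to -0.07), but 7.78 and 3.38 CPM in Wnt-low AE. After thinning, 62.2% of SP3-null and 61.8% of wild-type pre-HE cells had an Edn1 UMI (unthinned 72.8% and 74.3%), at 408 and 427 CPM. In pre-HE the 3 cells with the most Edn1 held 57 of 349 SP3-null and 134 of 718 wild-type UMIs. One wild-type cell held 71. Wnt-high AE, at 50.02 CPM in SP3-null and 43.7 CPM in wild-type cells, exceeded Wnt-low AE 6.43-fold and 12.9-fold. Along with Klf4 (2.44-fold and 2.02-fold) Edn1 was thus among the 6.25% of all genes at least 1.5-fold higher in Wnt-high AE in both libraries. Wnt-high VE exceeded Wnt-low VE 2.66-fold in SP3-null and 3.39-fold in wild-type cells, as 3.57% of genes did by at least 1.5-fold. HE, at 84.9 CPM in SP3-null and 134 CPM in wild-type cells (-0.66, -1.08 to -0.25), lay about at the level of conflux AE, with 116 and 101 CPM. The 3 HE cells with the most Edn1 held 31 of 76 SP3-null and 53 of 151 wild-type UMIs. An Edn1 UMI was present in 47.5% of SP3-null and 49.2% of wild-type HE cells (thinned 27.8% and 27.3%). In IAC only 2 SP3-null and 10 wild-type UMIs were left, in 1.87% and 3.12% of cells, at medians of 30343 and 31009 UMIs per cell, and 1 wild-type cell held 7 of the 10. In Wnt-low AE 6.03% (3.77% to 9.08%) of SP3-null and 3.60% (2.11% to 5.70%) of wild-type cells had an Edn1 UMI, at medians of 14172.5 and 13319.5 UMIs per cell. These intervals overlapped. After thinning, 2.66% of SP3-null and 1.78% of wild-type Wnt-low AE cells had one, at 5.32 and 3.55 CPM. The level in SP3-null cells, 7.78 CPM (5.58 to 10.5), was above that of SP3-null IAC, 0.574 CPM (0.07 to 2.07), while in wild-type cells the intervals of Wnt-low AE (2.19 to 4.99) and IAC (1.14 to 4.36) overlapped. The ratio between genotypes of 1.202 (0.45 to 1.98) was 0.92 (-0.03 to 1.88) without 3 cells per library. The erythroid list had 41.5 CPM in SP3-null and 133 CPM in wild-type Wnt-low AE, and its part was not tested.

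The direction of the Edn1 difference depended on which classes were summed. Over Wnt-high and Wnt-low AE alone Edn1 was higher in SP3-null cells, with a log2 ratio of 0.55 (0.35 to 0.75), and over both VE classes it was 0.27 (0.07 to 0.48), while the endothelial sum gave -0.11, or -0.04 (-0.15 to 0.06) without the 3 cells with the most Edn1 UMIs. The makeup of the pools also differed between genotypes. Wnt-high AE cells, where Edn1 was higher, numbered 574 against 348 Wnt-low AE cells in SP3-null and 467 against 472 in wild-type embryos. Wnt-high VE cells numbered 566 against 676 Wnt-low VE cells in SP3-null and 508 against 868 in wild-type embryos. The part of this makeup in the pooled ratios was not tested. Within Wnt-high AE (0.20, -0.02 to 0.41), Wnt-high VE (-0.02, -0.27 to 0.23) and Wnt-low VE (0.33, -0.05 to 0.71) each interval covered 0. That of Wnt-low AE lay above 0 (1.202, 0.45 to 1.98). Pre-HE made up 3.83% of the cells of the SP3-null and 5.15% of those of the wild-type sum, but held 24.6% and 43.9% of its Edn1 UMIs. For Klf2 these shares were 3.28% in SP3-null and 6.65% in wild-type cells, and the ratio was below 0 over AE alone (-0.11, -0.18 to -0.05) and over VE alone (-0.28, -0.33 to -0.22).

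Cav1, the main coat protein of caveolae, had a class order opposite to that of Edn1 with respect to Wnt. It had 116 CPM in SP3-null and 120 CPM in wild-type Wnt-low AE, against 38.2 and 38.9 CPM in Wnt-high AE, where its level was 0.328-fold and 0.324-fold that of Wnt-low AE, and 2.35% of genes were at least 1.5-fold lower there in both libraries. Among VE the fold of Wnt-high over Wnt-low was 0.352 in SP3-null and 0.456 in wild-type cells, against 2.04% of genes as much lower. Cav1 and Edn1 came together in conflux AE, where Cav1 had its highest level, with 237 CPM in SP3-null and 243 CPM in wild-type cells. Between genotypes Cav1 was higher in SP3-null cells of other endothelium, with 28.9 against 22.0 CPM (0.39, 0.25 to 0.54), and of Wnt-low VE, with 58.5 against 49.0 CPM (0.25, 0.10 to 0.41). In Wnt-low AE, Wnt-high AE and conflux AE its ratio lay between -0.05 and -0.03 and each interval covered 0. No class had an interval below 0, unlike the endothelial sum, and with each class weighted alike the ratio was 0.046.

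Thbd, whose product turns thrombin into an anticoagulant on the vessel wall, was a low gene with a peak in pre-HE and Wnt-low AE. It had 25.8 CPM in SP3-null and 27.3 CPM in wild-type pre-HE. In Wnt-low AE it had 23.1 CPM in SP3-null and 17.7 CPM in wild-type cells (0.39, 0.02 to 0.75), and in Wnt-low VE 14.8 and 10.8 CPM (0.45, 0.13 to 0.76). Both Wnt-low classes were thus higher in SP3-null cells, in contrast to Klf2 in the same classes. In IAC Thbd had 9 SP3-null and 30 wild-type UMIs, and in HE 1 and 11.

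Piezo1 was highest in conflux AE, with 73.5 CPM in SP3-null and 83.1 CPM in wild-type cells, and in pre-HE, with 76.3 and 78.1 CPM. It was lower in SP3-null cells in 8 of 9 classes, as 12.5% of genes were in 8 or more, and its interval lay below 0 in 3 of them. The lowest ratio was in IAC, with 22.1 against 30.4 CPM (-0.46, -0.88 to -0.04). In Wnt-high AE it had 47.3 CPM in SP3-null and 57.5 CPM in wild-type cells (-0.28, -0.48 to -0.08). HE was the exception, with 61.4 CPM in SP3-null and 43.6 CPM in wild-type cells (0.50, -0.09 to 1.08).

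Nfe2l2, the master regulator of the antioxidant response, varied little over classes and was slightly lower in SP3-null cells in each. Its levels ran between 37.3 and 50.5 CPM over the SP3-null classes and between 43.4 and 58.2 CPM over the wild-type classes, and no neighbours in the order of classes were separated. Classes further apart were, as Wnt-high VE, with 50.5 CPM in SP3-null and 54.9 CPM in wild-type cells, lay above Wnt-low VE, with 37.7 and 43.4 CPM. It was lower in SP3-null cells in 9 of 9 classes, as 4.58% of genes were, with ratios from -0.54 in HE (-1.18 to 0.07) to -0.03 in Wnt-high AE. The interval lay below 0 in 4 of the 9 classes and covered 0 in the rest. In other endothelium it had 39.4 CPM in SP3-null and 44.99 CPM in wild-type cells (-0.19, -0.30 to -0.08). Nfe2l2 lies on chromosome 2 at 75675513 to 75704663, with its midpoint 2.73 Mb from that of Sp3 at 72936430 to 72980446 (GRCm38.p6), so a haplotype linked to the Sp3 allele cannot be told apart from the loss of SP3.

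Of the NRF2 targets, Nqo1 was too sparse for any class to be read. Nqo1, a quinone reductase, had 13 UMIs in all SP3-null cells and 29 in all wild-type cells, and none in Wnt-high AE, where 3 UMIs would be 0.338 and 0.409 CPM. Hmox1, which breaks down heme, was 28.8 to 33.6 CPM in the SP3-null and 25.5 to 30.1 CPM in the wild-type Wnt-high and Wnt-low classes and other endothelium. It was higher in SP3-null cells of other endothelium, with 33.6 against 28.6 CPM (0.24, 0.10 to 0.37), and of Wnt-high VE, with 30.3 against 25.5 CPM (0.25, 0.003 to 0.50). Its high level in IAC, 80.1 CPM in SP3-null and 108 CPM in wild-type cells, came from a single cell in each library. One of 107 SP3-null IAC cells held 234 of the 279 Hmox1 UMIs, and 1 of 128 wild-type IAC cells held 412 of 456, or 83.9% and 90.4%. Both cells had UMIs of all 10 macrophage markers, as did 3 IAC cells in each library in all, with 65 UMIs of C1qb and 52 of Mrc1 in the SP3-null cell and 86 and 32 in the wild-type cell, and no other IAC cell had more than 7 SP3-null or 6 wild-type Hmox1 UMIs. The remaining IAC cells had 13.0 CPM in SP3-null and 10.6 CPM in wild-type cells, and the IAC log2 ratio turned from -0.43 (-0.65 to -0.22) to 0.30 (-0.33 to 0.93).

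**Figure D4:**
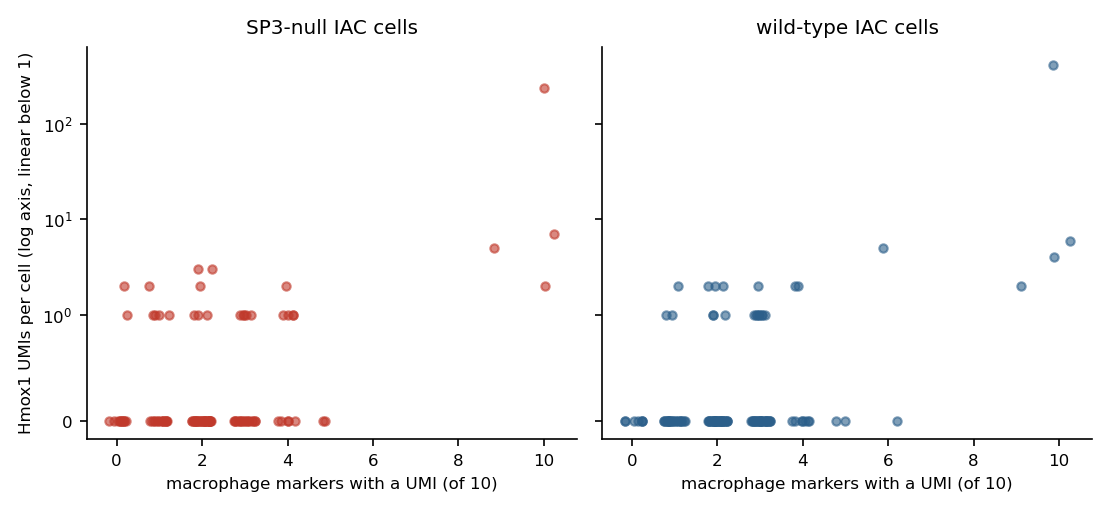
Hmox1 UMIs per IAC cell (log axis, linear below 1) against the number of 10 macrophage markers with a UMI, for 107 SP3-null cells (left) and 128 wild-type cells (right). Points are cells, shifted sideways at random for visibility. The highest cell stands at 234 UMIs in the SP3-null and 412 UMIs in the wild-type library, and is 1 of 3 cells with all 10 markers in each.

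By the mean of both libraries Klf2, Klf4, Nos3, Cav1, Thbd, Edn1 and Piezo1 were lowest in IAC. Klf2 still had a UMI in 54.2% of SP3-null and 57.0% of wild-type IAC cells. In HE Nos3 had 27.9 CPM in SP3-null and 32.9 CPM in wild-type cells, no lower than in Wnt-low VE, with 24.3 and 27.7 CPM. Among adjoining classes, HE differed most from pre-HE in this set: 7 of 9 genes were at least 1.5-fold lower in HE in both libraries, against 14.2% of all genes, with Nfe2l2 and Piezo1 as the exceptions. Of the 7, Thbd had 1 SP3-null HE UMI. Hmox1 had 14 SP3-null and 19 wild-type HE UMIs, and both its intervals covered 0 (-0.95, -2.00 to 0.03, and -0.76, -1.62 to 0.05). After thinning, Hmox1 in HE against pre-HE was 11.1 against 29.7 CPM in SP3-null but 25.5 against 23.5 CPM in wild-type cells. HE had 0.410-fold in SP3-null and 0.397-fold in wild-type cells of the pre-HE level of Klf2, and 0.0851-fold and 0.0967-fold of that of Cav1. From Wnt-low AE to conflux AE 5 of 9 were at least 1.5-fold higher in both libraries, against 9.99% of all genes, namely Klf2, Klf4, Nos3, Cav1 and Edn1. Over Wnt-high AE conflux AE was higher for Cav1 and Edn1 of the 9, against 8.1% of all genes, and pre-HE was higher than conflux AE for Edn1 alone, against 5.88%. Between arterial and venous cells, Nos3, Cav1 and Edn1 were at least 1.5-fold higher in Wnt-high AE than in Wnt-high VE in both libraries, against 8.22% of all genes, and Cav1 and Thbd in Wnt-low AE over Wnt-low VE, against 5.3%. From HE to IAC Klf4, Nos3 and Edn1 were lower, against 12.6%, and Hmox1, by the single cell in each library, was higher, against 6.56%. For Klf4, with 16 SP3-null and 9 wild-type HE UMIs, both intervals covered 0 (-0.83, -1.72 to 0.12, and -0.62, -1.79 to 0.69). Cav1 had too few UMIs in these classes to be called. Since classes were assigned from expression, these contrasts are a description. The classes also differed in other ways, as the median mitochondrial share was 7.97% in SP3-null and 7.68% in wild-type conflux AE and 4.34% and 4.47% in IAC, and its part was not tested.

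The genes whose class profile was most like that of Klf2, by Pearson correlation of log2(CPM + 1) over 18 values of class and library, were Ppdpf (r = 0.92), mt-Nd4l (0.92), Xiap (0.92), Fam222b (0.91) and Scpep1 (0.90). For Klf4 they were Dennd5b, Lima1, Arf2, Tmcc1 and 2610008E11Rik, all at 0.90. These are the top of 10987 genes ranked, and the points share libraries, depth and class. None of the 10 flow response genes was among them.

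Lists of genes of the flow pathways were set against all genes with at least 200 UMIs in the endothelial sum, of which 9.15% passed the fold threshold in either direction. Apart from the MEK5-ERK5-MEF2 cascade, each list here and below includes genes from among the 10. Its count and median thus partly repeat values given above. Of the 9 genes of the MEK5-ERK5-MEF2 cascade 0 passed the fold threshold, with a median log2 ratio of -0.01 against -0.02 over all genes, and Mef2c, which acts on the Klf2 promoter, had 278 CPM in SP3-null and 291 CPM in wild-type cells. Of 21 mechanosensor and junctional genes only Pkd1, a ciliary mechanosensor, passed, with 9.58 against 12.9 CPM (-0.43). Of 8 genes raised by laminar flow, among them Klf2, Klf4, Nos3 and Thbd, 0 passed, with a median of -0.04. These included the arterial connexin gene Gja4 at 168 CPM in SP3-null and 208 CPM in wild-type cells (-0.31, -0.36 to -0.26), and Timp3 at 300 and 263 CPM (0.19). Of 7 genes lowered by laminar flow 0 passed, with a median of -0.06. In the KLF family 1 of 11 passed, Klf12 at 5.78 CPM in SP3-null and 8.36 CPM in wild-type cells, and 9 of 11, Klf2 and Klf4 included, were below 0, against 57.1% of all genes, with a median of -0.12.

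The genes of caveolae and nitric oxide differed in both directions. Of 18 genes 2 were higher past the fold threshold in SP3-null cells, against 2.67% of all genes, and 2 lower, against 6.48%, with a median of -0.01. The higher ones were Nostrin, whose product moves NOS3 off the membrane, at 30.9 CPM in SP3-null and 22.1 CPM in wild-type cells (0.49, 0.36 to 0.61), and Ddah1, whose product removes an inhibitor of NOS3, at 112 and 87.9 CPM (0.35). The lower ones were Cavin3, a coat protein of caveolae, at 207 CPM in SP3-null and 291 CPM in wild-type cells (-0.49, -0.53 to -0.45), and the Cav1 partner Cav2, at 26.7 and 34.8 CPM (-0.38). Ddah1 and Cav2 were singled out after their values were seen. In the NRF2 system 1 of 20 passed, G6pdx at 6.39 CPM in SP3-null and 8.43 CPM in wild-type cells, with a median of 0.04, and of 10 heme genes 0 passed, with a median of 0.05. In thrombosis control 1 of 7 passed, Procr, a receptor for protein C, at 10.9 CPM in SP3-null and 14.6 CPM in wild-type cells, with a median of 0.09, while Tfpi had 160 and 136 CPM (0.23). In the endothelin system 0 of 3 genes, Edn1 among them, passed, with a median of -0.11.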

How the data were processed

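The deposited matrix holds UMI counts, not normalized, for each gene in each cell. Per the labels and the methods of the study, the authors used the Chromium 3' version 3 kit, aligned reads with Cell Ranger (version not given in the sources used here) to mm10 (GRCm38), removed barcodes with under 1000 UMIs or 1000 genes and contaminants such as erythroid progenitors, and took each class from the vote of 3 nearest cells of a published map, with arterial and venous cells told apart by a gene score. The deposited table of cells also holds the total counts and the fraction of mitochondrial UMIs by the authors. Matrix sums lay 0 to 197 UMIs below those totals. No doublet caller was applied, so doublets remain.

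UMIs were summed per library and class and divided by all UMIs of the sum, since 1 library per genotype leaves no replicates. CPM carry exact Poisson, ratios exact conditional and shares exact Clopper-Pearson intervals at 95%. UMIs of a gene cluster in cells, so intervals are narrower than the spread between samples. Ratios were read for genes with at least 200 UMIs in the endothelial sum or 50 in a class. Neighbouring classes were called separated where the ranges of both libraries did not overlap. The genes and gene lists were chosen with earlier results of these data known. Named are the 10 genes, Sp3, of each list the 2 genes with the most UMIs and the highest and lowest ratio, and the 5 genes most like Klf2 and Klf4. The steps were tested on simulated data. Alternatives were edgeR 4.0.16 TMM factors, DESeq2 1.42.0 size factors, equal weights of cells or classes, other sets of cells, thinning to 5000 UMIs, and other minimums and folds. Leaving out the top cells of a gene in a class, and class ratios over cells of low immediate early share, were added after seeing the data. The same number of top cells was left out of both libraries, which is a larger part of the one with fewer cells. Python 3.11.15, numpy 2.4.6, scipy 1.17.1, pandas 2.3.3 and R 4.3.3 were used.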

Additional observations from a re-analysis of the deposited data

Results flagged for a closer look

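Several genes had class ratios whose counting intervals lay on opposite sides of 0, and with 1 library per genotype the difference between classes was not tested. The log2 ratio of SP3-null over wild-type cells was -1.09 in pre-HE and 0.94 in IAC for Klf4. For Edn1 the ratio was -0.25 in pre-HE and -0.66 in HE, where both libraries had alike shares of cells with a UMI. In Wnt-low AE it was 1.202, where the intervals of that share overlapped. For Hmox1 it was -0.43 in IAC, where 1 cell per library held most UMIs, against 0.25 in Wnt-high VE and 0.24 in other endothelium.

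The deposited table calls 1 wild-type cell FL-HSC, a class in no comparison here. With 104553 UMIs it had more Nfe2l2 (9 UMIs), Hmox1 (14) and Piezo1 (6) than the 3 UMIs taken as the limit of a count of 0, and 2 UMIs of Klf2.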

How the results depend on the processing

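No paired analysis was possible because each genotype has 1 library. Over 15 alternatives the log2 ratio in the endothelial sum was below 0 in 15 for Klf2 (-0.28 to -0.11), Nos3 (-0.25 to -0.04), Nfe2l2 (-0.19 to -0.05) and Piezo1 (-0.22 to -0.13), and above 0 in 15 for Thbd (0.02 to 0.28). Klf4 was below 0 in 11 (-0.32 to 0.16), Hmox1 above 0 in 13 (-0.01 to 0.17), and Cav1 and Edn1 below 0 in 13. Cav1 was above 0 with each class weighted alike (0.046) and in VE alone (0.028), and Edn1 in AE alone (0.55) and VE alone (0.27). Klf2 was at -0.21 with either scaling, and the Edn1 interval then covered 0. The count of genes past the fold threshold was 0, but 1 (Nqo1, of 15 UMIs) with no UMI minimum and 1 (Edn1) in AE alone. Alternatives added after seeing the data turned Hmox1 in IAC to 0.30. Selecting cells of low immediate early share left the ratios of Nos3 in pre-HE (-0.37, -0.95 to 0.19) and Edn1 in HE (-0.52, -1.30 to 0.23) with intervals that covered 0. Depth limits the classes pre-HE, HE and IAC, and Nqo1 throughout.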
